A study of Homo sapiens with 15 samples.

Results

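The GFI1B, GFI1 and ZFPM1 loci were followed through 15 lists of nuclease-accessible chromatin from K562, a human erythroleukemia cell line. Every deposited peak that overlapped 1 of 3 windows on hg19 was taken: 80 kb around GFI1B (chr9:135810000-135890000), 40 kb around GFI1 (chr1:92930000-92970000) and 110 kb around ZFPM1 (chr16:88500000-88610000). The windows held 445 of the 1069283 peaks on the autosomes and X, with 167 at GFI1B, 19 at GFI1 and 259 at ZFPM1. Peaks that overlapped by at least 1 bp in any lists were merged, which gave 38 sites (13, 2 and 23 in that order) of 120992 regions in the whole series. A site kept every peak merged into it, also any that lay past the window edge.

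K562 cells were transduced in triplicate with lentivirus that carried dCas9-KRAB (catalytically dead Cas9 joined to the KRAB repressor domain) or dCas9, mostly with a guide RNA, Cr4 or Cr10, to the HS2 enhancer of the beta-globin locus. The groups of 3 libraries each were dCas9-KRAB with Cr4, dCas9-KRAB with Cr10, dCas9 with Cr4, dCas9 with Cr10, and dCas9-KRAB without a gRNA. Plain dCas9 was always paired with a gRNA. All cultures went through transduction with polybrene at 4 µg/mL and puromycin selection at 1 µg/ml, begun about 96 hours after transduction. The study set effects at HS2 against effects elsewhere in the genome, and these loci are not named as targets of either gRNA. One label names HS2 as the gRNA target in every sample, so the group without a gRNA was taken from titles and the design text.

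GFI1 and GFI1B are zinc-finger repressors that silence genes through the LSD1-CoREST complex. GFI1B acts mainly in red cell and platelet precursors and GFI1 mainly in myeloid and lymphoid cells, and each can repress its own gene and that of the other. ZFPM1, also called FOG1, binds the erythroid factor GATA1 and brings in the NuRD complex. Open chromatin at a promoter or distal site is where nucleases cut easily, usually because bound factors displace nucleosomes.

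The start windows of the 3 genes are shown because the peaks beside them are the promoter sites described next, and because GATA factors and the GFI1 proteins themselves are known regulators of this family. They come from RefSeq on GRCh38.p14 (250 bases before to 50 after a start) and were not carried over to hg19, so whether these exact bases lie under the peaks was not tested. Capitals mark 4 GATA words, namely AGATAA, the form that starts with T instead (TGATAA), the form that ends in G (AGATAG) and the form with both changes (TGATAG). They also mark AATC, the core bound by GFI1 and GFI1B. Both strands were searched, and capitals that touch or overlap belong to separate matches. GFI1B has 2 windows in the table, 33.2 kb apart, GFI1 has 3, of which the middle one is shown because the middle of the 3 recalled hg19 starts lies under the peak, and ZFPM1 has 1. The windows shown lie at chr9:132945281-132945580 (+), chr9:132978444-132978743 (+), chr1:92486050-92486349 (−) and chr16:88453030-88453329 (+).
GFI1B upstream start: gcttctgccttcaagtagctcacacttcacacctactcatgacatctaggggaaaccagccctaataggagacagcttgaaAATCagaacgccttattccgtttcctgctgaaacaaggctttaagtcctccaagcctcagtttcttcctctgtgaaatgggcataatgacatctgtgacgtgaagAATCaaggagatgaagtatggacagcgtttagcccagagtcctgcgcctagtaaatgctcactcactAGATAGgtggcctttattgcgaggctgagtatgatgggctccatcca
GFI1B downstream start: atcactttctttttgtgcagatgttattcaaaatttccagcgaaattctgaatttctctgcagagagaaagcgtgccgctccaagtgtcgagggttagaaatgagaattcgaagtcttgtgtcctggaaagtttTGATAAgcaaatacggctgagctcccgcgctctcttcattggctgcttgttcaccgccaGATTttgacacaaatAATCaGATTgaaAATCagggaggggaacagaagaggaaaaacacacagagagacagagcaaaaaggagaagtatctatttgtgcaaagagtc
GFI1 middle start: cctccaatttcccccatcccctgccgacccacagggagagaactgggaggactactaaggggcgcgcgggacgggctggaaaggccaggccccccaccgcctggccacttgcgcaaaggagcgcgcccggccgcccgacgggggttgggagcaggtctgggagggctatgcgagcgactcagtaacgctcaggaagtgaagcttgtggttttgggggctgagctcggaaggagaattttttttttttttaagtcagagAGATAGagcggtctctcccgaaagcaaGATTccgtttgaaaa
ZFPM1 start: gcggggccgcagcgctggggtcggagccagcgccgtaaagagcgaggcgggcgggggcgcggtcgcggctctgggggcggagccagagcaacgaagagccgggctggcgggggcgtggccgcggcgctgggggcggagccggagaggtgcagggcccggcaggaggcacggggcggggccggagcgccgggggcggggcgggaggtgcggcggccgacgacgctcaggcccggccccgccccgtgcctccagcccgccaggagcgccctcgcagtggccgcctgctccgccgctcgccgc
The downstream GFI1B window held 1 GATA word and 4 AATC words at 42.3% G or C, and the upstream one held 1 and 2 at 47.3%. The GFI1 window shown held 1 of each at 59.7%, while the other GFI1 windows held 0 GATA words and 1 AATC word each, at 63.3% and 66.7%. The ZFPM1 window held neither and was 83.0% G or C. Of 35116 promoter windows in the table, 25.0% held a GATA word and 69.0% held AATC, and the median content was 58.7% G or C, so these words are common and their presence is only a description.

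The lists held 53147 to 94777 peaks, and the total number of fragments is not given in the sources used here. From 24 to 33 peaks of each list belonged to the 38 sites, including peaks of an edge site that lay outside its window. The erythroid HS2 peak was present in 15 of 15 lists, and 0 lists had a peak in a window around CDKN2A, which K562 is known to lack. Each peak carries the authors' own fold, the enrichment at its summit over the local background. Fold and p-value together gave the implied summit pileup, the number of fragments over the summit. The relative pileup used below is that pileup plus 1, divided by the library's median over the 38888 regions that every list marks with a peak, so 1 means a middling shared peak. The rank percentile runs from 0 (no peak) to 100 (the strongest fold) in lists cut to 53098 peaks each.

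Of the 38 sites, 20 had a peak in all 15 deposited lists, against 32.1% of all regions in the series. There were 7 such sites at GFI1B, 1 at GFI1 and 12 at ZFPM1. Another 12 sites were in 2 to 14 lists, and 6 were in 1 list only, a state that 19% of all regions shared. In the equal-length lists 14 sites kept a peak in all 15 (28.1% of all regions did so) and 12 kept none. The picture in K562 was therefore of many stable sites at GFI1B and ZFPM1 and of a lone stable promoter at GFI1. Sites are named by their distance from the centre of the promoter peak, negative upstream of the gene. Promoters rest on recalled hg19 start positions that were not checked against an annotation.

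**Figure D1:**
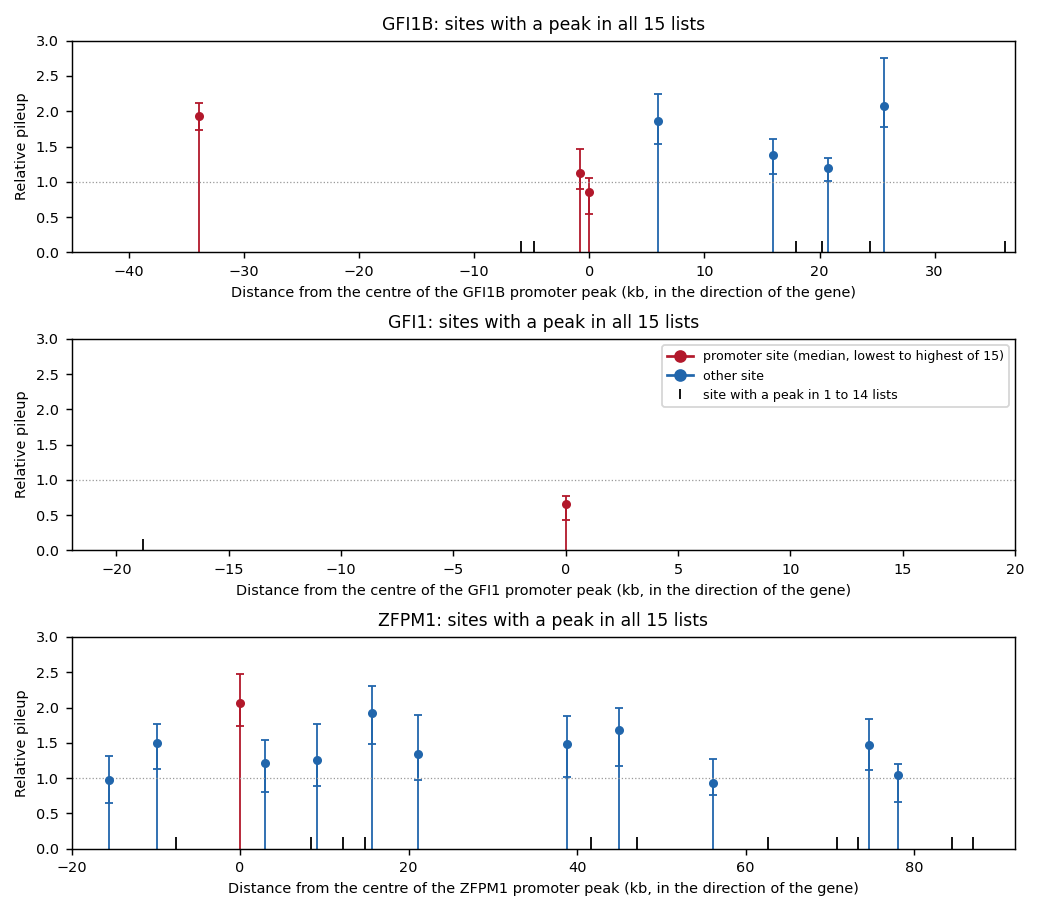
Median relative pileup (y axis, 1 is the median of the library) of the sites with a peak in all 15 lists against distance from the promoter peak (x axis, kb), with bars from the lowest to the highest of 15 libraries. GFI1B and ZFPM1 show 7 and 12 such sites and GFI1 shows 1, and short ticks mark the sites with a peak in 1 to 14 lists.

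By pileup the GFI1B promoter had the lowest median of the 7 GFI1B sites with a peak in every list, though its fold was above that of +20.7 kb (4.42). The promoter peak (chr9:135853879-135854326) had a median relative pileup of 0.859 (0.548 to 1.06 over the 15 libraries), higher than 40.1% of the shared regions. Its median fold was 5.23, and 11 of the 15 equal-length lists kept it. A neighbouring peak within 1000 bp of the same start, at −0.8 kb (chr9:135853045-135853519), stood at 1.12 (0.903 to 1.47) and was the higher of this pair in 15 of 15 libraries. By pileup the GFI1B promoter was thus a middling peak of K562 chromatin.

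The highest pileup of the GFI1B locus lay downstream, at +25.6 kb (chr9:135879308-135880024), with a median of 2.08 (1.78 to 2.75), above 89.1% of the shared regions. Second was the site at −33.9 kb (chr9:135819625-135820682), with 1.93 (1.74 to 2.11) and the highest median fold of the locus, 10.96. That site covers the recalled start of TSC1, the neighbouring growth-control gene on the other strand, and lies within 1000 bp of the upstream GFI1B start, so the peak cannot be assigned to one of these starts. It is counted with the promoter sites below. Next was +6.0 kb (chr9:135859551-135860624), with 1.86 (1.54 to 2.25). The site at +6.0 kb is a pair of summits 664 bp apart: both were listed in 14 lists, the downstream summit was the higher in 10, the upstream one in 3, and they were equal in 1. The order of these 3 sites was not firm, since +25.6 kb exceeded −33.9 kb in 11 of 15 libraries and −33.9 kb exceeded +6.0 kb in 8 of 15. All 15 libraries had +6.0 kb above the site at +16 kb (chr9:135869822-135870330; median 1.38, range 1.11 to 1.60), the distal site next in the order. Lower still was +20.7 kb (chr9:135874540-135875065), at 1.19 (1.01 to 1.34) with a median fold of 4.42.

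By pileup GFI1 had the lowest promoter of the 3 genes. By fold it stood above the GFI1B promoter but below the neighbouring GFI1B peak at −0.8 kb. The median fold was 5.68 at the main GFI1 summit, against 5.23 at the GFI1B promoter and 6.36 at −0.8 kb. The median rank percentile of the GFI1 promoter was 24.7 against 9.82 at the GFI1B promoter, and 14 equal-length lists kept it against 11. By these measures too the peak at −0.8 kb stood above the GFI1 promoter, and 15 equal-length lists kept that peak. The GFI1 site (chr1:92950681-92951917) had a median relative pileup of 0.661 (0.426 to 0.769), above 22.3% of the shared regions. In raw terms the summit held 22 to 82 fragments. The main summit was in 15 lists, and weaker summits beside it, the farthest 444 bp away, were in 2 lists and in 1 list. The GFI1 window held 1 other peak, at −18.8 kb (chr1:92969992-92970194), in replicate 3 of dCas9 with Cr4 only, with a pileup of 20. K562 thus showed 1 stable site, weak by pileup, over 40 kb at GFI1, whereas its relative GFI1B had 7 over 80 kb.

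ZFPM1 combined a strong promoter with a long run of distal sites. The promoter peak (chr16:88518976-88519827) had a median relative pileup of 2.06 (1.73 to 2.48), above 88.8% of the shared regions and the highest of its locus. By fold it stood at place 8 of the 12 stable ZFPM1 sites, at 6.29, and the local background there was 3.39 times the library median. Fold and pileup thus ordered these sites differently, since the fold is taken over that background. The peak was broad, with a median width of 816 bp, and its summit wandered by 214 bp (SD over 15 lists), against 9.90 bp at +15.7 kb.

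The strongest distal site of ZFPM1 was +15.7 kb (chr16:88534738-88535523), with a relative pileup of 1.92 (1.49 to 2.31) and the highest median fold of the locus, 9.46. Next by pileup came +45.0 kb (chr16:88563985-88564842) at 1.68 (1.18 to 2.0) and −9.8 kb (chr16:88509391-88509784) at 1.49 (1.13 to 1.77). The sites at +38.8 kb (chr16:88557861-88558459), +74.6 kb (chr16:88593771-88594207) and +21.1 kb (chr16:88540145-88540789) followed at 1.48, 1.47 and 1.35. Neighbours in this order did not separate cleanly, because each was above the next in 8 to 13 of 15 libraries. The remaining stable sites, at +9.1, +3.0, +78.1, −15.5 and +56.1 kb, had medians between 0.932 and 1.25. Among these, +3.0 kb (chr16:88522123-88522759) had the lowest median fold, 3.44, over a local background of 3.76 times the library median.

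Median local background was above that of all regions in every list at GFI1B and ZFPM1, and not at the 1 such site of GFI1. Over the sites in all 15 lists this background had a median of 2.05 times the library median at GFI1B and 2.33 times at ZFPM1. The single GFI1 site stood at 1.10 times. All such regions had 1.20 times (5% to 95% range 0.561 to 2.73), a range that holds the values of all 3 loci. Of chromosome 9, only the 1 Mb steps that start at 130 to 140 Mb were looked at. Among these the median was 1.69 at 135 to 136 Mb and highest, at 3.94, at 133 to 134 Mb. The part of this background in the pileups was not tested.

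**Figure D2:**
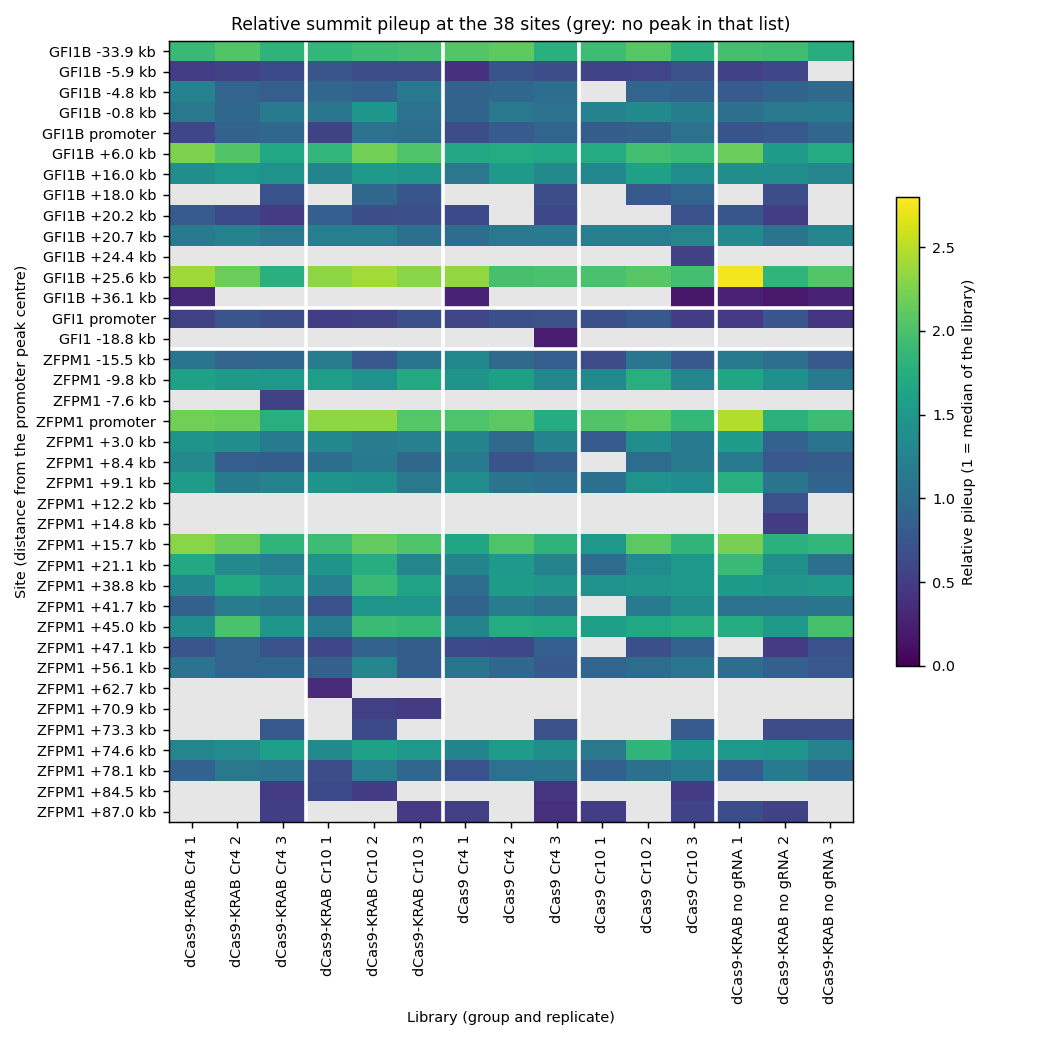
Relative pileup (colour, 1 is the median of the library) at the 38 sites (rows, in order along each locus) in the 15 libraries (columns, by group and replicate), grey where a list had no peak. The stable sites form unbroken rows of similar colour over the groups, and 15 of the 18 sites with grey cells have a median under 0.8.

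The sites absent from some lists were mostly weak where they were listed. The 18 of them had median folds of 2.11 to 5.87, against 3.44 to 10.96 at the 20 sites in every list, and 15 had a median relative pileup under 0.8. The other 3, at GFI1B −4.8 kb and at ZFPM1 +8.4 kb and +41.7 kb, each missing from 1 list, had 0.911 to 1.10. Of the 12 sites found in 2 to 14 lists, the 4 longest lists held 10 or 11 and the shortest list, replicate 1 of dCas9 with Cr10, held 2. Between these the order of length was not kept: a list of 70764 peaks (replicate 2 of dCas9 with Cr4) held 5, one of 67779 (replicate 2 of dCas9-KRAB with Cr10) held 10 and one of 60522 (replicate 1 of dCas9-KRAB with Cr10) held 7. Lists of equal length held a peak at 17 to 22 of the 38 sites. Each group reached 32 sites over its 3 lists. The count present in all 3 lists was 26 for dCas9-KRAB plus Cr4, 26 for dCas9-KRAB plus Cr10, 25 for dCas9 plus Cr4, 21 for dCas9 plus Cr10, and 24 for dCas9-KRAB alone. A pair of GFI1B sites upstream of the promoter, picked out after their values were seen, at −5.9 kb (chr9:135848033-135848320) and −4.8 kb (chr9:135849169-135849447), were each in 14 lists, the first missed only in replicate 3 of the group with no gRNA and the second only in replicate 1 of dCas9 with Cr10.

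**Figure D3:**
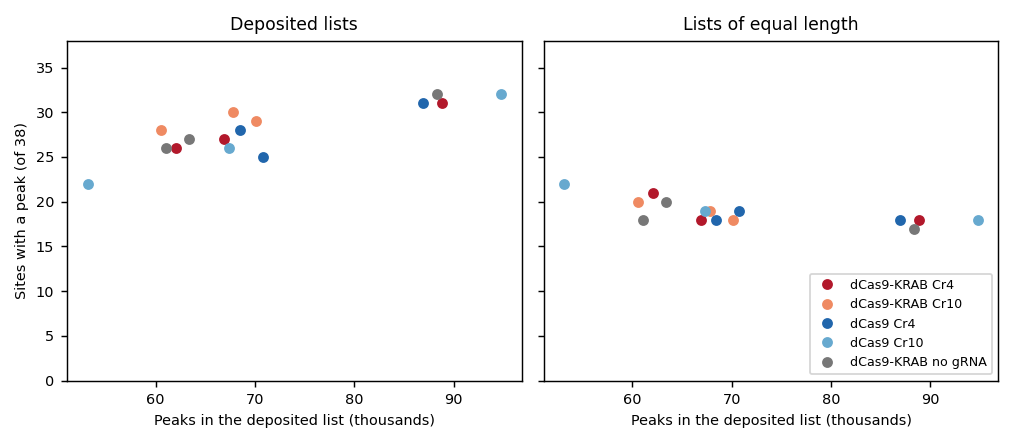
Number of the 38 sites with a peak (y axis) against the number of peaks in the deposited list (x axis, in units of 1000), each point a library coloured by group. In deposited lists the count runs from 22 to 32 and is highest in the longest lists, and in equal-length lists it runs from 17 to 22.

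Complete separation by presence was found at 0 of 120992 regions between the 6 libraries that combined dCas9-KRAB with a gRNA and the other 9. Fisher's exact test (two-sided, over all 48719 regions found in 3 to 14 lists) called 0 regions (0.0%). At an unadjusted p under 0.05 there were 469 regions (0.963%) and 0 of the 11 member sites tested. The lowest p of a member site was 0.103, at GFI1B +20.2 kb (chr9:135874195-135874489; picked out for that p), listed in 6 of these 6 libraries and in 5 of the 9 others. With 6 libraries against 9, the smallest p this test can reach is too high for a small number of regions to pass the adjustment. Member sites in 13 or 14 lists could not fall under 0.05 wherever their missing lists lay. The 0 calls therefore do not show that presence was alike. Of the 38 sites, 1 was in all 3 lists of one group and in none of its comparator, which over the 6 comparisons of 3 against 3 happened at 919 of 120992 regions (0.760%). GFI1B +36.1 kb (chr9:135889989-135890389) straddles the edge of the window, and only 1 of its 6 peaks overlapped the window itself. Counting all 6 peaks, the site was in 0 of 3 lists with dCas9-KRAB and Cr10 and in 3 of 3 without a gRNA. Such a loss was seen at 262 regions (0.217%) in that comparison. The site was weak, with pileups of 14 to 22 where listed, and in the equal-length lists only replicate 1 of dCas9-KRAB with Cr4 kept it.

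The promoters were compared next, in every library. The GFI1B promoter had a relative pileup of 0.597, 0.877 and 0.946 with dCas9-KRAB and Cr4 and of 0.548, 1.06 and 1.01 with dCas9-KRAB and Cr10. It stood at 0.667, 0.808 and 0.911 with dCas9 and Cr4, at 0.822, 0.859 and 1.04 with dCas9 and Cr10, and at 0.723, 0.773 and 0.926 with dCas9-KRAB and no gRNA. All 5 groups overlapped, and replicate 1 was the lowest of its group in each. Group means were 0.807 ± 0.185, 0.873 ± 0.282, 0.795 ± 0.123, 0.908 ± 0.118 and 0.807 ± 0.106 in that order (SD, n = 3). The peak at −0.8 kb averaged 1.08 ± 0.118, 1.21 ± 0.228, 1.02 ± 0.111, 1.26 ± 0.0725 and 1.10 ± 0.0610 in the same order.

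The GFI1 promoter had a relative pileup of 0.542, 0.737 and 0.661 with dCas9-KRAB and Cr4 and of 0.516, 0.557 and 0.681 with dCas9-KRAB and Cr10. Without the repressor it stood at 0.583, 0.685 and 0.693 with dCas9 and Cr4 and at 0.689, 0.769 and 0.509 with dCas9 and Cr10. The libraries with dCas9-KRAB and no gRNA spread most, at 0.462, 0.755 and 0.426. Means were 0.646 ± 0.0984, 0.585 ± 0.0859, 0.654 ± 0.0611, 0.656 ± 0.134 and 0.547 ± 0.180 (SD, n = 3 each, same order of groups).

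The ZFPM1 promoter had 2.21, 2.18 and 1.75 with dCas9-KRAB and Cr4 and 2.32, 2.33 and 2.06 with dCas9-KRAB and Cr10. Values were 2.03, 2.10 and 1.73 with dCas9 and Cr4, 2.04, 2.09 and 1.86 with dCas9 and Cr10, and 2.48, 1.80 and 1.93 with dCas9-KRAB and no gRNA. The group without a gRNA held both the highest library and one of the 3 lowest. Means were 2.04 ± 0.256, 2.24 ± 0.154, 1.95 ± 0.193, 2.0 ± 0.120 and 2.07 ± 0.360 (SD, n = 3 each, same order).

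The peak at −33.9 kb, at the TSC1 and upstream GFI1B starts, had 1.89, 2.04 and 1.82 with dCas9-KRAB and Cr4. It had 1.86, 1.93 and 1.97 for dCas9-KRAB plus Cr10, 2.06, 2.11 and 1.78 for dCas9 plus Cr4, 1.93, 2.08 and 1.78 for dCas9 plus Cr10, and 1.97, 1.94 and 1.74 for dCas9-KRAB alone. All 5 groups overlapped.

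None of these 5 promoter sites passed limma's threshold in any comparison. Between the 6 libraries given dCas9-KRAB plus a gRNA and the other 9, the mean rank percentile differed by 1.68 points at the GFI1B promoter (95% interval −7.97 to 11.3), −2.15 at −0.8 kb (−18.1 to 13.8), 2.27 at the GFI1 promoter (−12.2 to 16.7), 0.379 at the ZFPM1 promoter (−15.2 to 16) and −1.32 at −33.9 kb (−5.71 to 3.07). Exact two-sided permutation tests over 5005 splits gave p = 0.699, 0.737, 0.724, 0.957 and 0.478 in that order. The log2 relative pileup differed by −0.03 (95% interval −0.32 to 0.26), 0.02 (−0.17 to 0.21), 0.01 (−0.28 to 0.30), 0.09 (−0.09 to 0.28) and −0.0085 (−0.17 to 0.15). These intervals, from limma, leave room for modest changes in either direction. Groups of 3 against 3 cannot go below p = 0.1 in an exact test, and of the 60 such tests at these 5 sites just 1 reached it. That was the pileup at −0.8 kb with dCas9 and Cr10 against dCas9-KRAB without a gRNA, at 1.24, 1.33 and 1.19 against 1.03, 1.12 and 1.15. These groups did not overlap, and the log2 difference of 0.19 (95% interval −0.11 to 0.49, limma adjusted p = 1) was larger than the SD of either group, 0.08 in both.

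**Figure D4:**
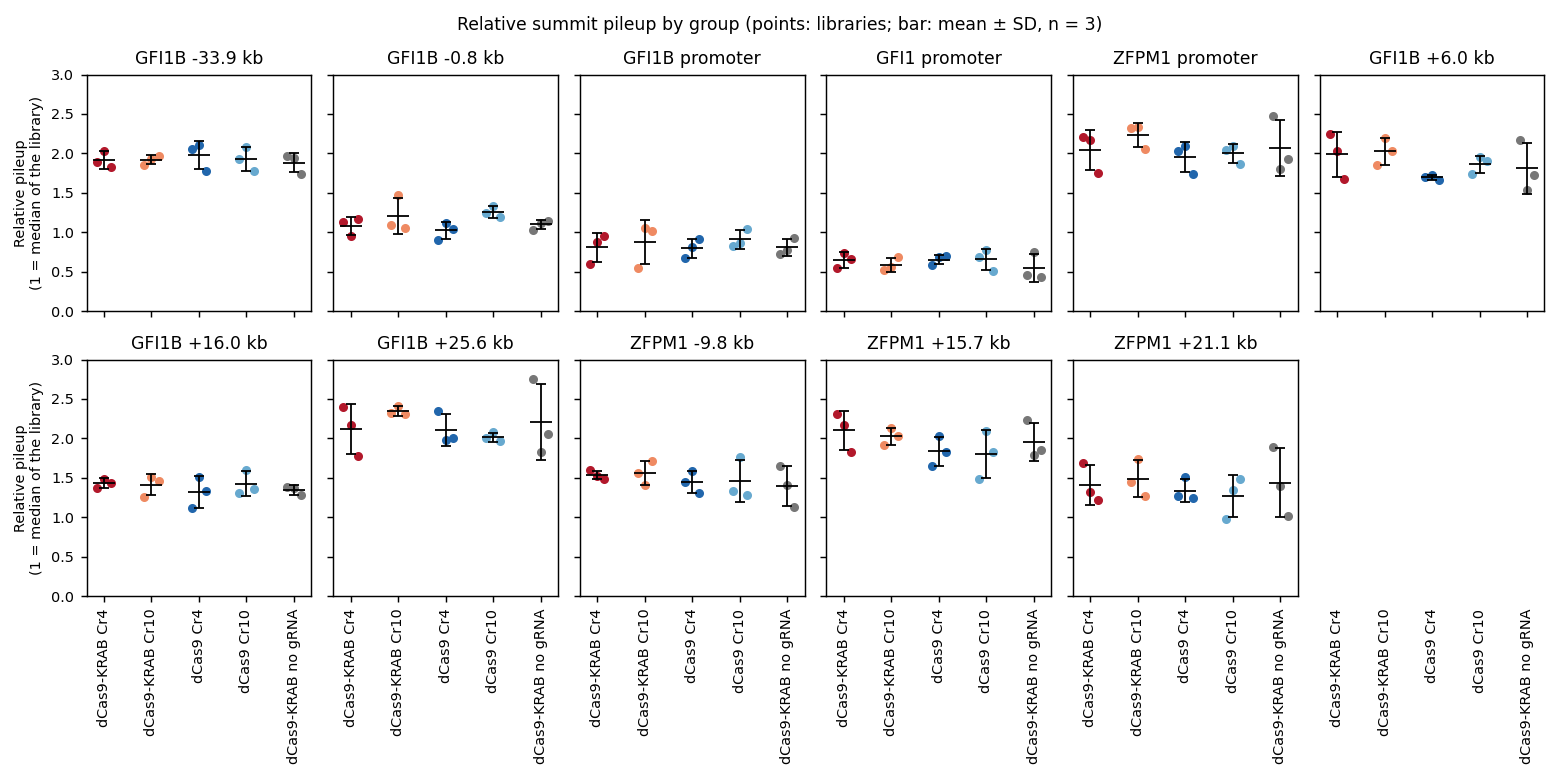
Relative pileup (y axis, 1 is the median of the library) by group (x axis) at 5 promoter sites (the one at −33.9 kb shared with TSC1) and the 6 distal sites of highest median fold at GFI1B and ZFPM1, with points for libraries and bars for the mean ± SD of 3. At these promoters, groups overlap in each of the 6 comparisons made except dCas9 with Cr10 against no gRNA at GFI1B −0.8 kb, and the medians of these sites run from 0.661 to 2.08.

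Across the windows 0 member sites passed limma's threshold (adjusted p under 0.05 over all regions) in any of 7 comparisons. With dCas9-KRAB and a gRNA against the other libraries, limma called 0 of 62831 regions by rank (0.0%) and 0 of 38888 by pileup (0.0%), so members and background were alike in having no call. At an unadjusted p under 0.05 the background was 1080 regions (1.72%) by rank and 299 (0.769%) by pileup, and 0 of 21 and 0 of 20 members. In the 6 comparisons of 3 against 3 limma called 0 regions (0.0%) by either measure, and again 0 members had an unadjusted p under 0.05. Set against libraries without a gRNA, the background at that level was 2.43% by rank and 0.723% by pileup in Cr4 libraries carrying dCas9-KRAB, and 2.81% and 0.841% in Cr10 libraries carrying dCas9-KRAB. It was 1.38% and 0.311% in Cr4 libraries carrying plain dCas9, and 2.98% and 1.09% in Cr10 libraries carrying plain dCas9. Set against plain dCas9, dCas9-KRAB gave 1.25% and 0.211% under Cr4, and 2.50% and 1.3% under Cr10. Of the 38 sites, 17 had too few peaks for the rank test and 18 for the pileup test.

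In the pooled comparison the site with the lowest limma p by pileup was GFI1B +6.0 kb. Its relative pileup was 2.25, 2.04 and 1.68 with dCas9-KRAB and Cr4 and 1.86, 2.20 and 2.03 with dCas9-KRAB and Cr10. It was 1.69, 1.73 and 1.66 with dCas9 and Cr4, 1.73, 1.95 and 1.90 with dCas9 and Cr10, and 2.17, 1.54 and 1.72 with dCas9-KRAB and no gRNA. Values of the 6 libraries with dCas9-KRAB plus a gRNA overlapped those of the others (2.01 ± 0.214, SD, n = 6, against 1.79 ± 0.188, n = 9). The log2 difference was 0.17 (95% interval −0.01 to 0.35; limma adjusted p = 1), and by rank it was 2.50 points (−4.76 to 9.76). By rank the lowest limma p was at ZFPM1 +15.7 kb instead, with a difference of 4.04 points (−2.98 to 11.1; limma adjusted p = 1).

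Among 20 sites with a pileup in every library, groups of 3 did not overlap by pileup at 1 site in each of 2 of the 6 comparisons. In the others no site separated by pileup, while 17.7% of all shared regions separated in at least 1 of the 6. At GFI1B +25.6 kb the values were 2.32, 2.41 and 2.30 with dCas9-KRAB and Cr10 against 2.0, 2.08 and 1.97 with dCas9 and Cr10. This site had 0.22 as its log2 difference (95% interval −0.08 to 0.52; limma adjusted p = 1), and 2.42% of all shared regions separated that way. Against dCas9-KRAB without a gRNA, with 2.75, 1.83 and 2.06, the same Cr10 libraries overlapped. By rank percentile, dCas9-KRAB with Cr10 (73.0 to 74.0) also overlapped dCas9 with Cr10 (57.9 to 76.6) at this site. The other site was GFI1B −0.8 kb, given above, where dCas9 with Cr10 lay above no gRNA, a separation that 2.27% of shared regions had. Among the comparisons of 3 against 3, the lowest limma p by rank was at ZFPM1 −15.5 kb (chr16:88503772-88504117). Its percentile was 9.29, 33.5 and 10.1 with dCas9 and Cr10 against 46.5, 39.9 and 35.4 with dCas9-KRAB and no gRNA (−23.0 points, 95% interval −49.3 to 3.38, limma adjusted p = 1). These groups did not overlap by rank but did by pileup, and the share of all regions that separated by rank was not counted. With dCas9-KRAB and Cr10 the percentile was 52.4, 17.0 and 50.8, which was 22.4 points above the same dCas9 libraries (limma adjusted p = 1), and the 2 comparisons share those libraries.

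**Figure D5:**
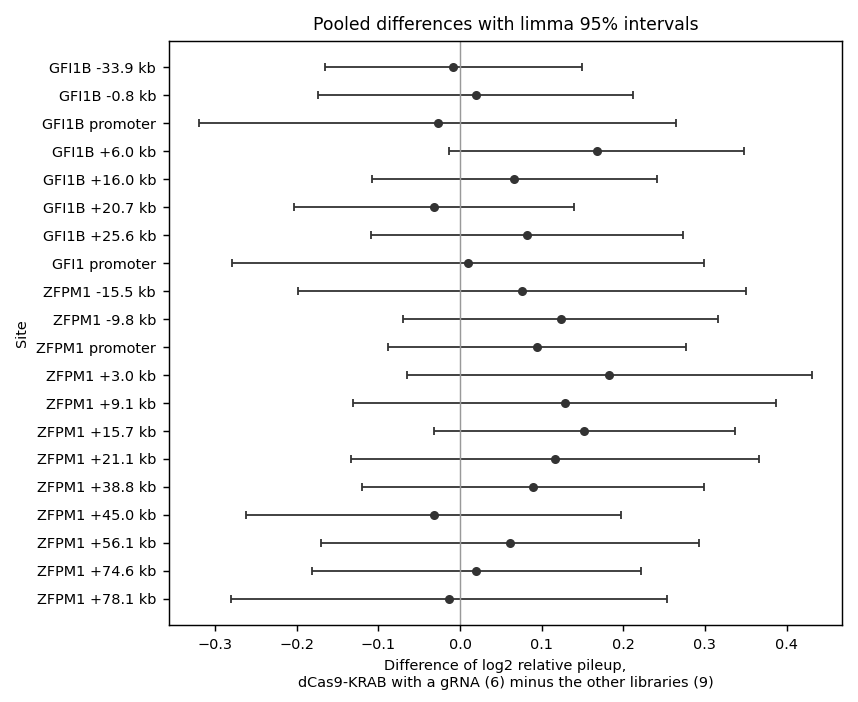
Difference of log2 relative pileup between the 6 libraries that had dCas9-KRAB plus a gRNA and the other 9 (x axis) at the 20 sites with a peak in all 15 lists (y axis), with 95% limma intervals. All 20 intervals include 0, and the largest differences are 0.17 at GFI1B +6.0 kb and 0.18 at ZFPM1 +3.0 kb.

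In the pooled comparison the median difference was 1.68 rank points over 21 members, against 0.113 over all 62831 regions, and 0.07 in log2 relative pileup over 20 members, against 0.00361 over all 38888. Of these members, 16 of 21 by rank and 15 of 20 by pileup lay at or above 0, against 51.5% and 51.8% of all regions. In the 6 comparisons of 3 against 3, which share libraries, 10 to 12 of 21 lay at or above 0 by rank, against 49.6% to 52.8% of all regions. By pileup 7 of 20 did so in Cr4 libraries with plain dCas9 set against no gRNA (49.0% of all regions). It was 17 of 20 in Cr10 libraries with dCas9-KRAB set against no gRNA (54.7%). In the other comparisons it was 11 to 15 of 20 (49.6% to 52.5%). The highest and the lowest of the 5 group means lay farther apart than the larger of their SDs at 5 of 20 sites, against 38.5% of shared regions. The group with the highest mean was dCas9-KRAB with Cr4 at 4 sites, dCas9-KRAB with Cr10 at 8, dCas9 with Cr4 at 3, dCas9 with Cr10 at 3 and dCas9-KRAB without a gRNA at 2 (16.5%, 25.4%, 15.5%, 25.5% and 17.1% of shared regions in that order). The lowest mean fell to these groups at 1, 1, 9, 5 and 4 sites (19.9%, 18.4%, 19.5%, 22.5% and 19.7%). Whether the effect of KRAB differed between the gRNAs was tested directly: limma called 0 of 62831 regions by rank and 0 of 38888 by pileup, with the lowest member p at 0.0698 and 0.261.

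Promoters of 12 co-repressor genes each had a peak in 15 of 15 deposited lists: 4 of LSD1-CoREST, which GFI1 and GFI1B recruit, and 8 of NuRD, which ZFPM1 recruits. Of all regions, promoter or not, 32.1% had a peak in every list, and the share among all promoters was not tested. Where several regions lay within 1000 bp of a start, the one with the highest median percentile was taken. In the equal-length lists MTA1 kept a peak in 14 of 15 and the other 11 in all 15. Their median rank percentile ran from 27.5 at MTA1, a NuRD scaffold subunit, to 97.0 at HDAC1, a histone deacetylase of both complexes. KDM1A, which encodes the demethylase LSD1, stood at 84.3, and its partner RCOR1 (CoREST) at 79.4. On the same scale the peak over the GFI1B start had a median of 9.82 and the GFI1 promoter 24.7, both below all 12. The choice made for the 12 would instead take the stronger peak at −0.8 kb for this GFI1B start. The ZFPM1 promoter at 32.5 and the GFI1B peak at −0.8 kb at 38 were above MTA1 and below the other 11. The peak at −33.9 kb, shared with the TSC1 start, stood at 82.4, among the co-repressor promoters. In the pooled comparison 5 of the 12 differences lay below 0 by rank, from −5.38 to 4.15 points, and 0 of 12 passed limma's threshold or an unadjusted p under 0.05 in any of the 7 comparisons.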

How the data were processed

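Nuclei of 15 K562 cultures were digested with nuclease and sequenced, and each library was deposited as one narrowPeak list on hg19. Per the submitters' processing notes, CASAVA 1.3, BWA and bedtools were used. Neither the peak caller nor its threshold is given in the sources used here. The fold column is a ratio that the authors deposited for each peak. The p-value and the q-value of a peak stand as −log10 values that the authors deposited. Their deposited score, a whole number, entered no test.

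Samples were grouped by titles and the design text. The members and lists were chosen with earlier results of these data known. Promoter sites were those within 1000 bp of recalled hg19 starts, and 1 of the 5 is shared with TSC1. Named sites were all promoter sites, distal sites in all 15 lists, the 3 distal sites of highest median fold per window, sites present in all lists of one group and none of its comparator, and any called site. Other sites are marked as picked out later.

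The summit pileup k was solved from fold = (k + 1)/(λ + 1) and the Poisson p-value. A whole number met both within 0.01 in 100% of the peaks of every list. Regions with a kept peak in at least 3 libraries were tested by rank, and those in all 15 lists by log2 relative pileup. Limma fitted 5 groups with a mean-variance trend, with Benjamini-Hochberg adjustment over all regions, and the scripts were tested on simulated data. The p-values measure the spread between libraries transduced in triplicate. Depth is unknown because total fragments are not given, so no interval for a count was made. Alternatives changed list length, rank scale, filters, merging, centring, pseudocount, trend, replicate block and the libraries used. Software was Python 3.11.15, numpy 2.4.6, pandas 2.3.3, scipy 1.17.1, matplotlib 3.10.9, R 4.3.3 and limma 3.58.1.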

Additional observations from a re-analysis of the deposited data

Results flagged for a closer look

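In 78 sets of 6 or 9 values checked for a library far from the rest, 2 were picked up, where chance gives about 1 in 20. At GFI1B +25.6 kb, replicate 3 of dCas9-KRAB with Cr4 was the lowest of the 6 libraries that had dCas9-KRAB plus a gRNA, at a log2 relative pileup of 0.8293 with the nearest at 1.12. At ZFPM1 +38.8 kb, replicate 1 of dCas9 with Cr4 was the lowest of the 9 other libraries, at 0.0199 with the nearest at 0.508.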

How the results depend on the processing

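Over 815 values of the pooled site differences under other settings, 0 passed the threshold and 78 changed sign, all at differences that limma had not called; the cause was not tested. With percentiles from the uncut lists the differences turned to −4.45 (GFI1B promoter), −0.862 (GFI1B +16 kb), −0.185 (GFI1B +25.6 kb), −1.86 (ZFPM1 promoter), −0.624 (ZFPM1 +56.1 kb) and −1.31 points (ZFPM1 +78.1 kb). With regions built around summits, and a peak counted where it covered at least 0.5 of the region, the ZFPM1 promoter turned to −1.79 points, and by rank limma called 2 regions in each of the 4 comparisons against no gRNA. With one library left out at a time the rank differences ran from −5.47 to 2.93 (GFI1B −0.8 kb), −0.999 to 4.88 (GFI1B promoter), −1.38 to 2.73 (GFI1B +16 kb), −2.26 to 1.34 (GFI1B +20.7 kb), −0.337 to 2.82 (GFI1B +25.6 kb), −1.12 to 5.47 (GFI1 promoter), −1.24 to 7.60 (ZFPM1 −15.5 kb), −3.19 to 4.18 (ZFPM1 promoter), −5.02 to 1.19 (ZFPM1 +9.1 kb), −0.572 to 6.26 (ZFPM1 +21.1 kb), −6.10 to 1.57 (ZFPM1 +45.0 kb) and −0.989 to 2.08 points (ZFPM1 +78.1 kb). The log2 pileup differences ran from −0.0335 to 0.00977 (GFI1B −33.9 kb), −0.0558 to 0.0652 (GFI1B −0.8 kb), −0.112 to 0.125 (GFI1B promoter), −0.0622 to 0.0045 (GFI1B +20.7 kb), −0.0481 to 0.0946 (GFI1 promoter), −0.115 to 0.0816 (ZFPM1 +45.0 kb), −0.0389 to 0.117 (ZFPM1 +56.1 kb), −0.0429 to 0.0775 (ZFPM1 +74.6 kb) and −0.116 to 0.0985 (ZFPM1 +78.1 kb). Leaving out one library gave 0 to 1 called regions by rank for Cr10 against no gRNA, under dCas9-KRAB (1 without its replicate 3) and under dCas9 (1 without its replicate 3). It gave 0 to 2 by rank for dCas9-KRAB against dCas9 under Cr10 (1 when replicate 3 of the dCas9-KRAB libraries was left out, 2 when replicate 3 of the dCas9 libraries was). By pileup it gave 0 to 1 in the pooled comparison and for Cr10 against no gRNA under dCas9-KRAB, the 1 arising when replicate 1 of dCas9-KRAB with Cr10 or replicate 2 of no gRNA was left out in both, and when dCas9 with Cr4 lost its replicate 1 in the second. Sites with a peak in every list then numbered 20 to 23.

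The replicate numbers did not meet the bar for pairing, a correlation above 0.1 in every same-numbered pair: 13 of 30 pairs passed by rank (median 0.0735, against −0.105 for other numbers) and 19 of 30 by pileup (0.135 against −0.125). As a hint from the data, 10 of 15 libraries were closest to their own number. With the replicate number as a block, limma called 1 region by pileup in the pooled comparison and under Cr10 in dCas9-KRAB against no gRNA and against dCas9, and 0 in the other comparisons. Precision is limited by 3 libraries per group and by the unknown number of fragments.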
